A study of Mus musculus with 27 samples.

Results

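Fabp5, Cpne5, Rgs16, Tff3, H1fx and Fgd6 are 6 genes of the 23191 named genes counted in mouse liver, and they were chosen by their higher mRNA level on a diet high in fat and sucrose (HF/HS) than on chow in these same mice. The diet values below therefore describe the choice and carry no test. The livers came from 27 male C57BL/6J mice in 4 groups: 7 littermate controls on chow, 7 littermate controls on HF/HS, 6 HGFAC-KO mice on chow and 7 HGFAC-KO mice on HF/HS. The mice were 8 weeks old when feeding started, and per the study's text the liver RNA-Seq was done after 4 weeks on the diet. HGFAC-KO mice lack HGF activator, a secreted protease made by the liver, in the whole body and not in hepatocytes alone, through a deletion in Hgfac that takes exon 2 whole and a portion of exon 1.

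A diet rich in fat and sugar loads the liver with fatty acids and with fructose and glucose, and hepatocytes respond by changing lipid handling, sugar metabolism and signaling. The 6 genes belong to 6 different protein families. Fabp5 encodes a fatty acid-binding protein that carries long-chain fatty acids through the cytosol, Cpne5 a copine, a calcium-dependent phospholipid-binding protein, and Rgs16 a regulator of G protein signaling that speeds up GTP hydrolysis by Gi and Gq α subunits. Tff3 encodes a trefoil peptide, a small secreted protein known from mucus-producing epithelia, H1fx a linker histone that binds DNA between nucleosomes, and Fgd6 an exchange factor that loads the small GTPase CDC42 with GTP.

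Fabp5 and Cpne5 were the only ones of the 6 whose 14 HF/HS mice all lay above all 13 chow mice. Within a genotype, 1.57% of all genes tested in controls and 1.7% in HGFAC-KO mice had every HF/HS mouse above every chow mouse, and because these 6 genes were chosen by that contrast, nothing is read from their larger share. Tff3 separated the diets in controls, but 1 HGFAC-KO mouse on chow had the highest Tff3 level of all 27 mice. H1fx was higher on HF/HS on average, from a level of a few counts per library, with overlapping groups in both genotypes. By size of rise among the 13525 genes tested in controls, Tff3 ranked 3, Cpne5 4, Rgs16 5 and Fabp5 9. Among 13613 genes in HGFAC-KO mice, Cpne5 ranked 1, Rgs16 4, H1fx 7 and Fabp5 8. Cpne5 and H1fx did not pass the low-count filter among chow mice alone, so they enter these ranks only through their HF/HS levels. Not all 6 were among the genes with the largest rise, since Fgd6 ranked 228 in controls and 324 in HGFAC-KO mice, and Tff3 ranked 177 in HGFAC-KO mice.

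Total counts per mouse ran from 36056177 to 57298657. Hgfac (chr5:35041509-35048461) was lower in each HGFAC-KO mouse than in any control fed alike, with means of 201 ± 12.8 CPM (SD, n = 7) in controls and 75.2 ± 8.27 CPM (n = 6) in HGFAC-KO mice on chow, and of 271 ± 15.5 and 91.8 ± 7.94 CPM (n = 7 each) on HF/HS. CPM are counts per 1000000 counts on named genes after TMM scaling, which evens out differences in library composition. The liver markers Alb and Hnf4a had at least 52930 and 736 CPM in every mouse. Of the markers of pancreas and gut, Prss1 had 0 counts in all 27 mice, Cpa1, Pnlip and Krt20 were at most 0.197 CPM, and Cela2a ran from 0.547 to 1.18 CPM. Fabp2, which is on that list, ran from 47.9 to 125 CPM.

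The 6 genes lie on 5 chromosomes of GRCm38, per the GENCODE annotation. Fabp5 (ENSMUSG00000027533) is at chr3:10012548-10016607 on the plus strand, Cpne5 (ENSMUSG00000024008) at chr17:29155556-29238167 on the minus strand and Rgs16 (ENSMUSG00000026475) at chr1:153740349-153745468 on the plus strand. Tff3 (ENSMUSG00000024029) is at chr17:31125306-31129646 on the minus strand, H1fx (ENSMUSG00000044927) at chr6:87980421-87981637 on the minus strand and Fgd6 (ENSMUSG00000020021) at chr10:94036001-94145339 on the plus strand. H1fx has a single exon and overlaps the antisense gene Gm5577, which had between 0 and 11 counts per mouse. Rgs16 overlaps the antisense gene Gm28513, not analysed here. Whether the counting used strand is not given in the sources used here, so reads of these overlaps cannot be told apart. Fabp5 has processed pseudogenes close to its own sequence, and reads shared with them were assigned by the authors' counting.

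The mean level per kilobase of merged exons on control chow was highest for Fgd6, at 5.51 CPM per kb, followed by Fabp5 at 2.62 and Tff3 at 2.32 CPM per kb. Rgs16 at 0.261, H1fx at 0.117 and Cpne5 at 0.0155 CPM per kb were far lower. Tff3 had the highest mean of the 6 genes in the other 3 groups, at 17.9 CPM per kb in controls on HF/HS, 27.4 CPM per kb in HGFAC-KO mice on chow, where 1 mouse raised the mean, and 49.0 CPM per kb in HGFAC-KO mice on HF/HS. A merged exon length overstates the transcript length of a gene with several isoforms, which lowers its level per kilobase.

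Promoter windows from RefSeq (GRCm38.p6, the 250 bases before the start) were matched for 4 of the 6 genes, Cpne5, Rgs16, H1fx and Fgd6. The sequences of Rgs16 and Fgd6 are shown because they held both motifs that were found, at positions outside the annotated genes. Capitals mark the GC box (GGGCGG) and the CCAAT box (CCAAT), each on either strand, so that CCGCCC and ATTGG are the same motifs on the other strand. The RefSeq window of Rgs16 is chr1:153740103-153740352, of which the 246 bases up to 153740348 are printed, since the last 4 lie inside the annotated gene. The Fgd6 window is chr10:94035751-94036000, and both are on the plus strand. By the GENCODE coordinates, 250 of the 250 bases of the Cpne5 window and 155 of those of the H1fx window lie inside the gene, so these windows come before the RefSeq start only.
Rgs16: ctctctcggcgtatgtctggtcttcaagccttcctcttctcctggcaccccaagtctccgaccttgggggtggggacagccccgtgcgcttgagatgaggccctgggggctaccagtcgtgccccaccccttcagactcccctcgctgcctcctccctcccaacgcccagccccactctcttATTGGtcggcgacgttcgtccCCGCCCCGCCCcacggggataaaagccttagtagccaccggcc
Fgd6: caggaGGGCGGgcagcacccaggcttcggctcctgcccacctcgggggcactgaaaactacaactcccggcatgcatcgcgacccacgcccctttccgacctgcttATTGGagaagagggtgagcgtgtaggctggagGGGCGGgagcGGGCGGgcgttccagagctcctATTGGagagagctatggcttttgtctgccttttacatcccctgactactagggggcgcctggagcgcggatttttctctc

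The 4 windows, each taken over its full 250 bases, shared a base composition rich in G and C. The G and C content was 76.4% for Cpne5, 66.4% for Rgs16, 75.2% for H1fx and 62.4% for Fgd6, against a median of 52.4% over the 32851 promoter windows of the table. They held 27, 17, 30 and 16 CpG dinucleotides in the same order, against a median of 6. The GC box was found 2 times in Cpne5, 2 times in Rgs16, 1 time in H1fx and 3 times in Fgd6, and 32.7% of all windows held it. The CCAAT box was found 1 time in Rgs16 and 2 times in Fgd6, with 33.8% of all windows holding it. The E-box (CACGTG, 6.02% of all windows), the nuclear receptor hexamer (AGGTCA, 14%), the TATA box (TATAAA, 12.4%), the STAT site (TTCNNNGAA, 7.02%) and the cAMP response element (TGACGTCA, 1.55%) had 0 matches in these 4 windows. The same held for the antioxidant response element core (TGACNNNGC, 10.2%) and for perfect matches to the carbohydrate response element (0.0% of all windows), the PPAR element (0.0335%) and the LXR element (0.0152%), which pair E-boxes or hexamers. A match describes these letters only, and the absence of one says nothing of a factor elsewhere.

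**Figure D1:**
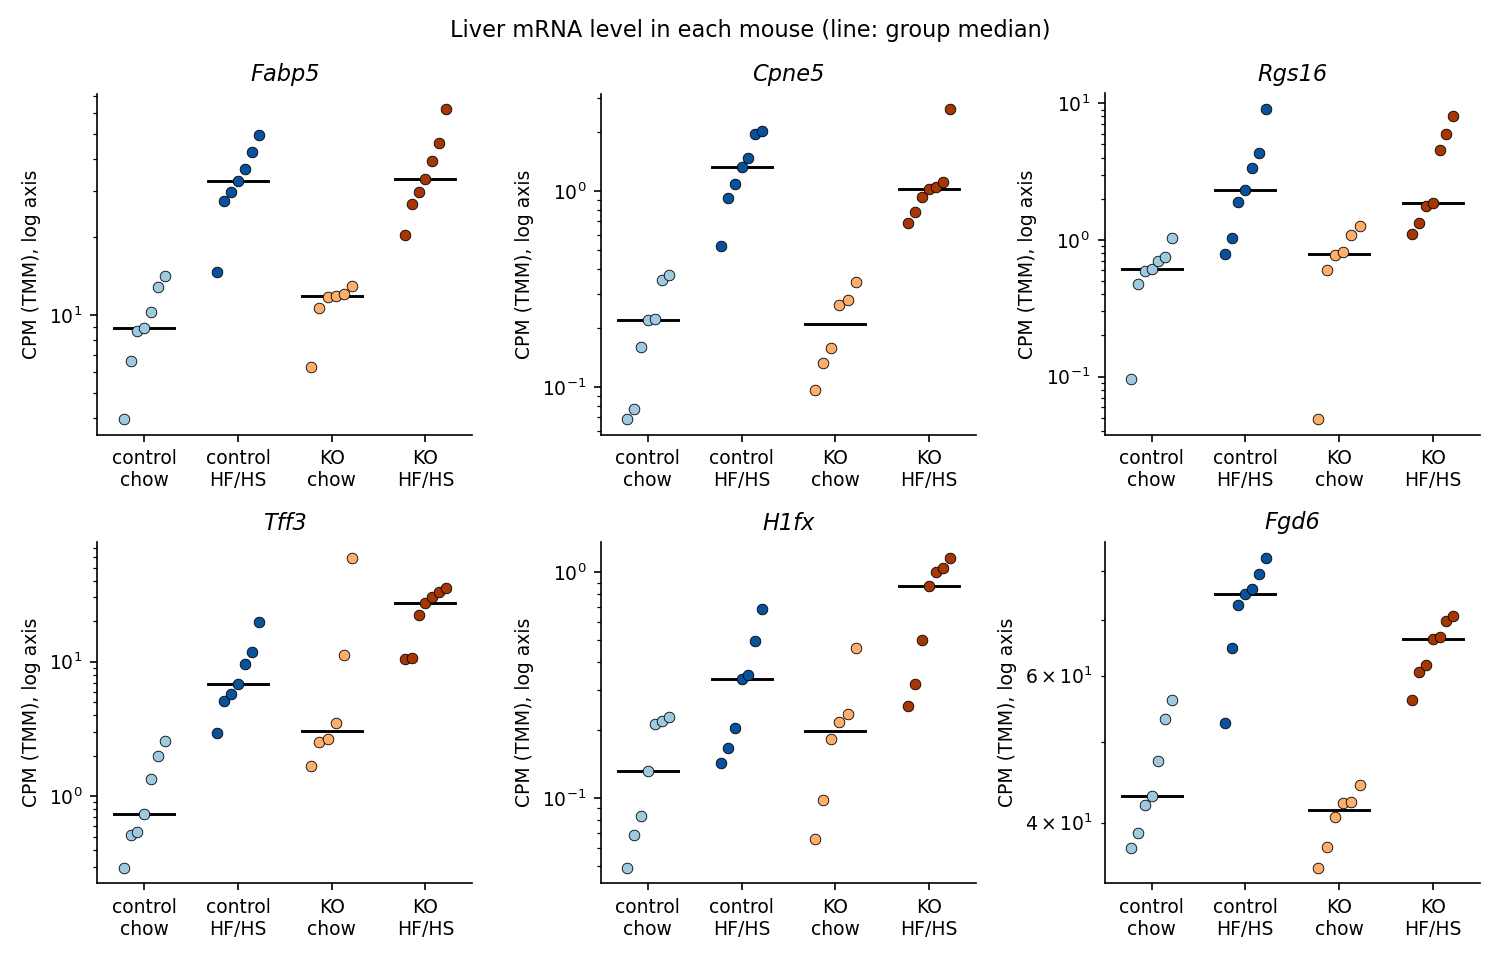
Level of each of the 6 genes in every mouse, in CPM on a log axis, by genotype and diet, with a line at the group median and 7, 7, 6 and 7 mice from left to right. Fabp5 and Cpne5 separated the diets in all mice, while 1 HGFAC-KO mouse on chow had 59.5 CPM of Tff3.

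Fabp5, the fatty acid-binding protein, was by group mean 3.57 times as high on HF/HS as on chow in controls and 3.37 times in HGFAC-KO mice. On chow it ran from 3.96 to 14.1 CPM (median 8.86) in controls and from 6.27 to 12.97 CPM (median 11.8) in HGFAC-KO mice. The HF/HS levels ran from 14.6 to 49.2 CPM (median 32.8) in controls and from 20.3 to 62.2 CPM (median 33.4) in HGFAC-KO mice. The diets did not overlap in either genotype, with the margin in controls down to 14.6 CPM in the lowest HF/HS mouse against 14.1 CPM in the highest chow mouse. Without TMM scaling that margin closed, and 6 of the 7 HF/HS controls lay above every chow control. The log2 difference between diets was 1.83 (standard error 0.28) in controls and 1.75 (0.24) in HGFAC-KO mice.

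Cpne5, the copine, was the lowest of the 6 genes per kilobase on chow and had the largest rise of all 13613 genes tested in HGFAC-KO mice. It did not pass the low-count filter among chow mice alone, so it entered that ranking only through its HF/HS level. On chow it ran from 0.0686 to 0.374 CPM (median 0.220) in controls and from 0.0963 to 0.342 CPM (median 0.211) in HGFAC-KO mice, which was between 3 and 18 counts per mouse. The HF/HS levels ran from 0.527 to 2.03 CPM (median 1.33) in controls and from 0.684 to 2.62 CPM (median 1.02) in HGFAC-KO mice, or between 22 and 123 counts. Even so the diets did not overlap in either genotype, and this held without TMM scaling and with upper-quartile scaling. The log2 difference was 2.65 (standard error 0.36) in controls and 2.46 (0.37) in HGFAC-KO mice. Leaving out the HGFAC-KO mouse at 2.62 CPM gave 2.12.

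Rgs16, the regulator of G protein signaling, rose in most mice but spread the most within the HF/HS groups. On chow it ran from 0.0968 to 1.03 CPM (median 0.615) in controls and from 0.0488 to 1.25 CPM (median 0.794) in HGFAC-KO mice. The HF/HS levels ran from 0.791 to 9.08 CPM (median 2.32) in controls and from 1.11 to 8.09 CPM (median 1.85) in HGFAC-KO mice, a range of 11.5-fold and 7.28-fold within these groups. In each genotype 6 of 7 HF/HS mice lay above every chow mouse, and all 7 lay above the chow median. In controls the 6 became 5 without TMM scaling and with upper-quartile scaling. The log2 difference was 2.42 (standard error 0.54) in controls and 2.20 (0.58) in HGFAC-KO mice, and leaving out the HF/HS control at 9.08 CPM gave 1.91. The fold of the group medians, 3.78 in controls and 2.33 in HGFAC-KO mice, was smaller than the fold of the means, 5.35 and 4.64.

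Tff3, the trefoil peptide, showed a complete separation of the diets in controls and none in HGFAC-KO mice. In controls it ran from 0.295 to 2.58 CPM (median 0.745) on chow and from 2.98 to 19.8 CPM (median 6.89) on HF/HS. In HGFAC-KO mice on chow, 5 mice ran from 1.67 to 11.2 CPM and the sixth, replicate 1, had 59.5 CPM from 2436 counts. On HF/HS, HGFAC-KO mice ran from 10.4 to 35.1 CPM (median 27.5), so that 0 of 7 lay above that chow mouse and all 7 lay above the chow median of 3.08 CPM. The log2 difference was 2.93 (standard error 0.50) in controls and 0.83 (0.79) in HGFAC-KO mice, where leaving out the chow mouse at 59.5 CPM gave 2.47. With all mice, limma voom gave 1.99 in HGFAC-KO mice and the fit with the replicate number as a block 1.92, so the size of this difference depended on the fit. By group mean, Tff3 thus stood in the order control chow, control HF/HS, HGFAC-KO chow and HGFAC-KO HF/HS, and by group median HGFAC-KO chow came before control HF/HS.

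The chow mouse with high Tff3 was also set beside markers of other cell types. Its summed level of 7 cholangiocyte markers (Krt7, Krt19, Epcam, Sox9, Spp1, Cftr and Muc1, genes of the bile duct epithelium) was 55.6 CPM, inside the range of its group, 49.1 to 87.5 CPM. Across the other groups this sum ran from 35.95 to 71.5 CPM in controls on chow, from 36.5 to 62.0 CPM in controls on HF/HS and between 49.5 and 69.8 CPM in HF/HS-fed HGFAC-KO mice, and each of the 7 markers was detected in all 27 mice. The same mouse had the highest summed level of its group for markers of hepatocytes (96020 CPM), lipid-associated macrophages (66.8 CPM), sinusoidal endothelium (181 CPM), lymphocytes (4.1 CPM) and adipocytes (0.586 CPM). Its lipid-associated macrophage sum was also the highest of all 27 mice, with at most 49.6 CPM in any other group. That sum came mostly from Lpl and Cd9, which reached 38.9 and 25.5 CPM in this group. Trem2, Gpnmb, Itgax and Mmp12 each stayed at or below 0.842 CPM there. For Kupffer cells and macrophages the mouse had 132.5 CPM in a group range of 127.3 to 193.6 CPM. For stellate cells it had 264 CPM in a range of 140.5 to 274 CPM. Its pancreas and gut sum, mostly Fabp2, was the lowest of all 27 mice, 48.7 CPM. This mouse also had the lowest Rgs16 level of all 27 mice, 0.0488 CPM from 2 counts. As a whole library this mouse stood apart within its group, with a chi-square per gene of 80.9 to 105 against each of the other 5 mice, where pairs among those 5 had 23.4 to 62.1. Larger values also occurred elsewhere, up to 173 between controls on HF/HS and up to 135 between HF/HS-fed HGFAC-KO mice. Without the chow mouse with high Tff3, the log2 difference between diets in HGFAC-KO mice was 1.74 for Fabp5, 2.65 for Cpne5, 1.95 for Rgs16, 1.65 for H1fx and 0.64 for Fgd6. The part of cell composition or of the library in its Tff3 level was not tested.

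H1fx, the linker histone, was near the limit of what these libraries resolve. On chow it had 2 to 20 counts per mouse, from 0.0492 to 0.228 CPM (median 0.131) in controls and from 0.0660 to 0.464 CPM (median 0.199) in HGFAC-KO mice. The HF/HS livers had 7 to 49 counts, from 0.143 to 0.686 CPM (median 0.336) in controls and from 0.256 to 1.16 CPM (median 0.873) in HGFAC-KO mice. The diets overlapped in both genotypes, with 4 of 7 HF/HS controls and 5 of 7 HF/HS HGFAC-KO mice above every chow mouse of their genotype. The log2 difference in HGFAC-KO mice was 1.80 (standard error 0.44). H1fx did not pass the low-count filter in controls, where a fit without that filter gave 1.21 (standard error 0.40), and it passed in HGFAC-KO mice only through its HF/HS level.

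Fgd6, the CDC42 exchange factor, had the smallest rise and the smallest spread of the 6 genes. On chow it ran from 37.4 to 56.2 CPM (median 43.1) in controls and from 35.3 to 44.3 CPM (median 41.4) in HGFAC-KO mice. The HF/HS levels ran from 52.7 to 83.1 CPM (median 75.2) in controls and from 56.2 to 70.8 CPM (median 66.5) in HGFAC-KO mice. The diets did not overlap in HGFAC-KO mice, and in controls 1 of 7 HF/HS mice lay below the highest chow mouse. The log2 difference was 0.66 (standard error 0.11) in controls and 0.68 (0.07) in HGFAC-KO mice. The SD within a group was between 8.18% and 15.7% of the mean, against 75.1%, 63.7%, 169% and 41.9% for Tff3 in the 4 groups.

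**Figure D2:**
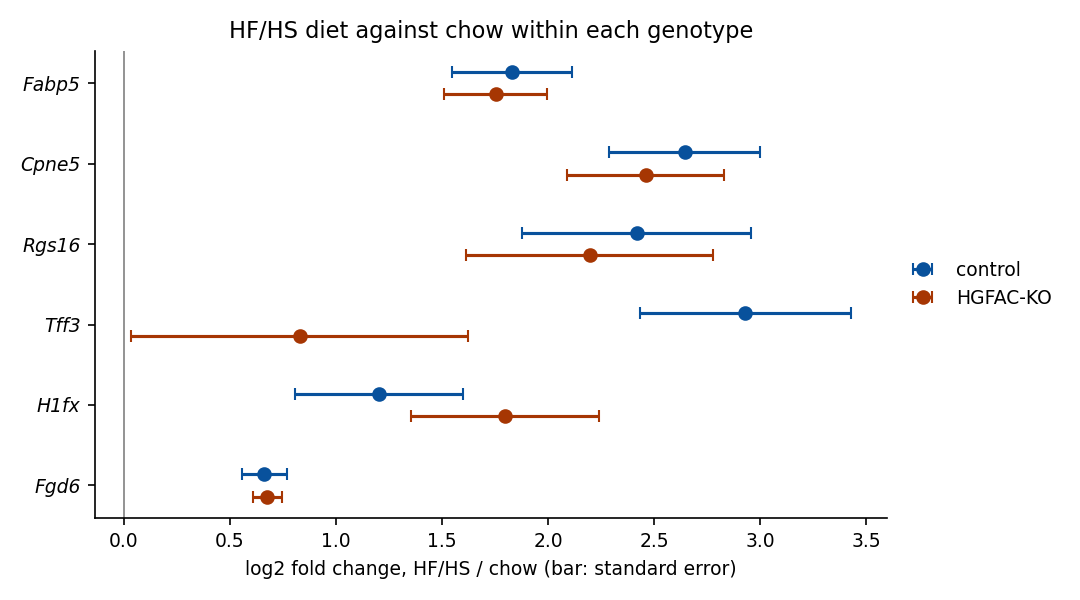
Log2 fold change of HF/HS over chow for each of the 6 genes, with its standard error, in controls (7 against 7 mice) and HGFAC-KO mice (7 against 6). The genotypes lay close together except for Tff3, at 2.93 in controls and 0.83 in HGFAC-KO mice, and H1fx, at 1.21 from a fit without the low-count filter and 1.80.

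Counted over the 6 genes, 37 of 42 pairs of a gene and an HF/HS control lay above every chow control, and 32 of 42 pairs did so in HGFAC-KO mice. The count in controls was 35 without TMM scaling and 36 with upper-quartile scaling, and that in HGFAC-KO mice was 32 under both. All 42 pairs in each genotype lay above the chow median of the same genotype. Complete separation was found for 3 genes in controls (Fabp5, Cpne5 and Tff3) and for 3 in HGFAC-KO mice (Fabp5, Cpne5 and Fgd6). Over all genes tested, the share was 1.57% in controls and 1.7% in HGFAC-KO mice. When mice of both genotypes were pooled, the HF/HS mice above all 13 chow mice numbered 14 of 14 for Fabp5 and Cpne5, 13 for Fgd6, 11 for Rgs16, 7 for H1fx and 0 for Tff3. For the pair counts and the pooled counts, the share over all genes was not computed. The genes were chosen by the diet contrast, so these counts describe the choice only.

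**Figure D3:**
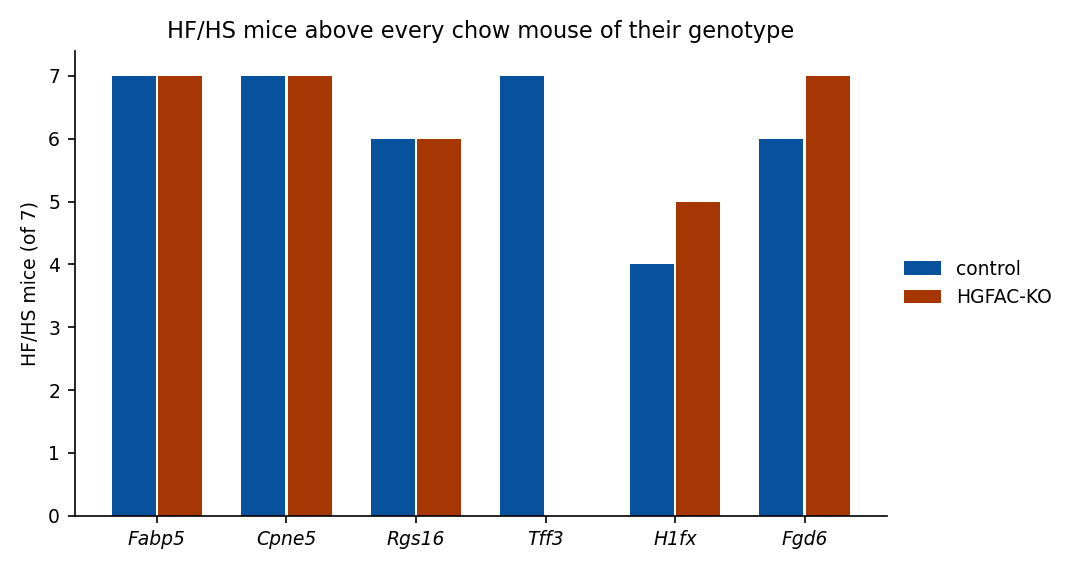
Number of HF/HS mice, of 7 in each genotype, whose level lay above that of every chow mouse of the same genotype, for each of the 6 genes. Fabp5 and Cpne5 reached 7 in both genotypes, and Tff3 reached 7 in controls and 0 in HGFAC-KO mice.

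The difference between genotypes in the size of the diet effect, HGFAC-KO minus control on the log2 scale, is given as a description, since the diet effect chose the genes. It was -0.08 (standard error 0.38) for Fabp5, -0.19 (0.55) for Cpne5 and -0.22 (0.82) for Rgs16. It was 0.59 (0.64) for H1fx and 0.01 (0.13) for Fgd6. In these 5 genes the difference was smaller than its standard error. Tff3 had a difference of -2.10 (0.97), which was -0.46 (0.71) without the HGFAC-KO mouse on chow at 59.5 CPM.

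Whether the level of these genes depended on HGFAC was asked by comparing HGFAC-KO mice with controls on the same diet. With edgeR's quasi-likelihood test and Benjamini-Hochberg adjustment over all genes, 0 of the 4 genes that passed the low-count filter on chow and 0 of 6 on HF/HS had an adjusted p under 0.05. Of all genes tested, 0.00737% on chow and 0.0148% on HF/HS passed. Unadjusted p-values under 0.05 were found for 1 of 4 genes on chow (Tff3) and 2 of 6 on HF/HS (Tff3 and H1fx). Over all genes tested, 5.98% on chow and 9.64% on HF/HS had such a p. H1fx is in the HF/HS count only because of its level in HGFAC-KO mice on HF/HS, so its p is not read as a test. DESeq2 and limma voom also gave 0 genes past the threshold on either diet. These tests are not free of the choice of the genes. It is not known which genotype's diet difference chose each gene, and the HF/HS and chow levels behind that choice also enter the genotype differences.

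Tff3 had the largest genotype difference of the 6 genes on both diets. On chow its level in HGFAC-KO mice was 13.5 ± 22.8 CPM (SD, n = 6) against 1.14 ± 0.859 CPM (n = 7) in controls, and 4 of 6 HGFAC-KO mice lay above every control. The log2 difference was 3.55 (standard error 0.93, adjusted p = 0.801 by edgeR, two-sided exact permutation p = 0.00699), and it was 1.91 without the mouse at 59.5 CPM. On HF/HS the level was 24.1 ± 10.1 against 8.85 ± 5.64 CPM (SD, n = 7 each), and 5 of 7 HGFAC-KO mice lay above every control. The log2 difference there was 1.44 (standard error 0.41, adjusted p = 0.378 by edgeR, two-sided exact permutation p = 0.00641), with adjusted p between 0.0762 (DESeq2) and 0.632 over the alternatives. The smallest exact p that these numbers of mice allow is 0.00117 on chow and 0.000583 on HF/HS. The higher level in HGFAC-KO mice was thus in the same direction on both diets and did not pass the adjustment over all genes on either. Sox9, a transcription factor and marker of bile duct epithelium, also had a higher mean in HGFAC-KO mice. It was 27.4 ± 4.03 (SD, n = 6) against 18.8 ± 5.1 CPM (n = 7) on chow, and 26.7 ± 6.6 against 15.5 ± 5.1 CPM (n = 7 each) on HF/HS. Its log2 difference was 0.55 (standard error 0.16, adjusted p = 0.801 by edgeR) and 0.78 (0.21, adjusted p = 0.344 by edgeR). Of the 6 measured cholangiocyte markers, 0 passed between genotypes with edgeR on either diet, and 1, Sox9, had an unadjusted p under 0.05 on each diet and passed with DESeq2 on HF/HS. The others had log2 differences from -0.04 (Muc1) to 0.27 (Spp1) on chow, and from -0.09 (Krt7) to 0.11 (Krt19) on HF/HS. The part of Sox9 or of bile duct cells in the Tff3 difference was not tested.

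H1fx was higher in HGFAC-KO mice on HF/HS, at 0.737 ± 0.371 against 0.341 ± 0.197 CPM (SD, n = 7 each), with 4 of 7 HGFAC-KO mice above every control. Its log2 difference was 1.12 (standard error 0.39). The high level in HGFAC-KO mice on HF/HS is among the values by which the gene may have been chosen and let it pass the low-count filter there, so this difference is given as a description. On chow, where it did not pass the filter, the exact permutation test gave p = 0.331, with 0.211 ± 0.141 CPM (n = 6) in HGFAC-KO mice and 0.142 ± 0.0775 CPM (n = 7) in controls. Both differences rest on few counts.

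For the other 4 genes, no genotype difference passed a test. For Fabp5 the log2 difference was 0.23 on chow (standard error 0.25, exact permutation p = 0.35) and 0.15 on HF/HS (0.27, exact permutation p = 0.639). For Rgs16 it was 0.34 on chow (0.47, exact permutation p = 0.738) and 0.12 on HF/HS (0.58, exact permutation p = 0.794). For Cpne5 it was -0.18 on HF/HS (0.32, exact permutation p = 0.575), and on chow, where it did not pass the filter, the exact permutation test gave p = 0.847. Fgd6 had a lower mean in HGFAC-KO mice on both diets, with a log2 difference of -0.17 on chow (0.09, exact permutation p = 0.147) and -0.16 on HF/HS (0.09, exact permutation p = 0.153). The adjusted p from edgeR for these genes was between 0.585 and 0.971. A p that misses the threshold does not show equal levels.

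**Figure D4:**
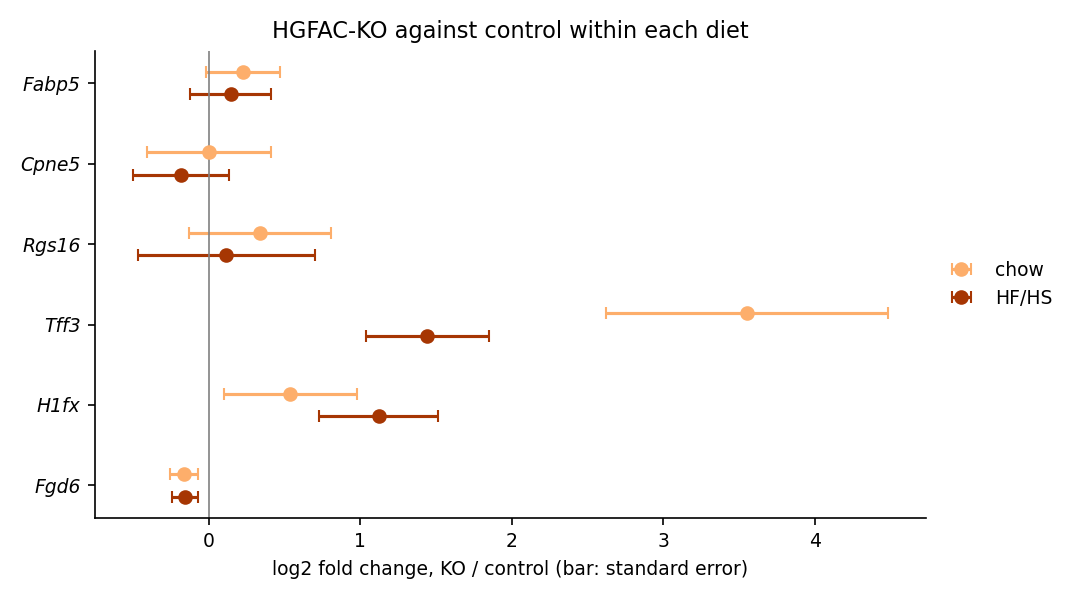
Log2 fold change of HGFAC-KO over control for each of the 6 genes, with its standard error, on chow (6 against 7 mice; Cpne5 and H1fx from a fit without the low-count filter) and on HF/HS (7 against 7). Tff3 lay at 3.55 on chow and 1.44 on HF/HS, and the other genes between -0.18 and 1.12.

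Whether the 6 genes moved together from mouse to mouse was examined after subtracting each group's mean from the log2 CPM, which leaves variation that did not choose the genes. Of the 15 pairs, 0 had an adjusted p under 0.05 by permutation of mice within groups (100000 resamples, Benjamini-Hochberg over the 15 pairs), and 1 had an unadjusted p under 0.05. That pair was Rgs16 and Tff3, with a Pearson r of -0.55 over 27 mice (p = 0.0117, adjusted p = 0.175 by permutation) and a Spearman rho of -0.33 (p = 0.0998, adjusted p = 0.575 by permutation). Without the 2 mice farthest from the median in Rgs16, r was -0.349, and without the HGFAC-KO mouse on chow that was highest in Tff3 and lowest in Rgs16, r was -0.311. The relation thus rested in part on that mouse. Leaving it out, a setting chosen after seeing the data, also moved other pairs: r went from 0.245 to 0.459 for Cpne5 and Rgs16 (p = 0.0303), from -0.179 to -0.455 for Cpne5 and Tff3 (p = 0.0325), from -0.253 to -0.442 for Rgs16 and H1fx (p = 0.0348), and from 0.0703 to 0.304 for Tff3 and Fgd6 (p = 0.173), all by permutation. The adjusted p was 0.174 for the first 3 of these pairs and 0.432 for the last. Within the diets, r of Rgs16 and Tff3 was -0.774 over 13 chow mice (Spearman rho -0.495, adjusted p = 0.2 for r by permutation) and -0.229 over 14 HF/HS mice. The chow value was -0.163 without the 2 chow mice farthest from the median in Rgs16. In the HF/HS mice alone, H1fx had r = -0.622 with Fgd6 (adjusted p = 0.229 by permutation) and -0.557 with Rgs16 (adjusted p = 0.369 by permutation). Over all 27 mice, the other 14 pairs had r between -0.263 (Tff3 and H1fx) and 0.245 (Cpne5 and Rgs16). Fabp5 and Cpne5, which both separated the diets completely, had r = -0.146 within groups (p = 0.511, adjusted p = 0.709 by permutation).

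**Figure D5:**
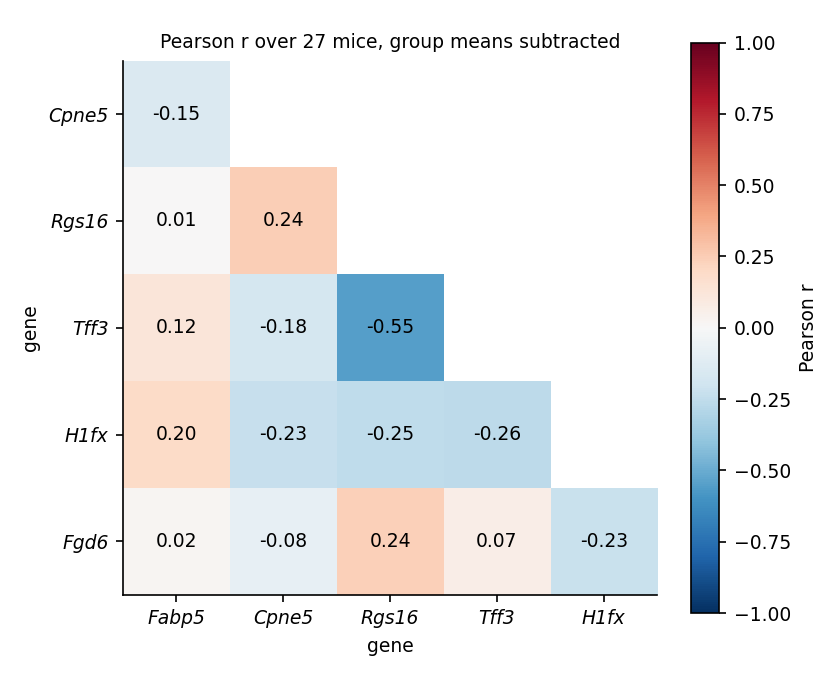
Pearson r of log2 CPM for each of the 15 pairs of genes over 27 mice, after subtracting group means, with color from -1 to 1. Rgs16 and Tff3 had the largest value, -0.55, and the other 14 pairs lay between -0.263 and 0.245.

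The genes most like each of the 6 over all 27 mice, by Pearson r of log2 CPM among 13932 genes, share the diet groups with them, and r is given as a description. For Fabp5 they were Ces4a (r = 0.93), a carboxylesterase, and the interferon-related genes Irf9 (0.876) and Ifi44 (0.874). Mean Ces4a was 2.22 CPM on chow and 7.88 CPM on HF/HS in controls, and 2.42 and 7.10 CPM in HGFAC-KO mice. For Cpne5 they were Pnpla7 (0.885), a lysophospholipase, Mgll (0.857), the monoacylglycerol lipase, and Hap1 (0.856). For H1fx they were Nmi (0.843), Trim21 (0.829) and Stat2 (0.827), of which Stat2 is a partner of Irf9 in interferon signaling.

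For Rgs16 the most similar genes were Tnfaip8l1 (0.907), Pdilt (0.884) and Epb41l4b (0.881). For Tff3 they were Tent5a (0.887), Gldn (0.88) and Gria3 (0.84). Gldn followed the same order of group means as Tff3, at 0.101 CPM in controls on chow, 0.424 CPM in controls on HF/HS, 0.885 CPM in HGFAC-KO mice on chow and 1.69 CPM in HGFAC-KO mice on HF/HS. For Fgd6 they were Rad21 (0.924), a cohesin subunit, Crebbp (0.919), a histone acetyltransferase, and Sox5 (0.909), a transcription factor.

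After subtracting group means, a different set of genes was closest to each, except for Ces4a, which stayed among the 3 closest to Fabp5 (r = 0.709, with Cyp2c70 at 0.726 and Lbr at 0.677). For Rgs16 the closest were Aqp9 (0.86), the hepatocyte glycerol channel, Arrdc3 (0.857) and Nr1i3 (0.854), the nuclear receptor CAR. Among the 3 closest to Tff3 were Zfp57 (0.856) and Efnb2 (0.791), and among those closest to Fgd6 were Tlk1 (0.853) and Phf3 (0.834). For Cpne5 they were Btbd6 (0.734), Ulk3 (0.726) and Tmed4 (0.721), and for H1fx Nub1 (0.831), Espnl (0.817) and Senp8 (0.768). These values are the highest of 13932 genes over 27 mice and were not tested.

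The other members of the 6 protein families were compared between diets to see how far each rise was shared. Over all genes tested, 4.93% rose and 5.6% fell in controls, and 3.17% rose and 2.73% fell in HGFAC-KO mice (edgeR, adjusted p under 0.05). In either direction, 25.4% of all genes in controls and 22.4% in HGFAC-KO mice had an unadjusted p under 0.05, 14.3% and 10.3% passed with DESeq2, and 10.7% and 5.85% with limma voom. The counts given for these lists under those rules are to be read against these shares. In the fatty acid-binding protein family, 2 of 4 measured genes other than Fabp5 rose in controls and 1 of 4 in HGFAC-KO mice, with 0 lower. Fabp1, the main fatty acid-binding protein of hepatocytes, rose from a mean of 2628 to 4007 CPM in controls (log2 difference 0.61, adjusted p = 0.000359 by edgeR) and, in HGFAC-KO mice, from 2364 to 3200.0 CPM (0.44, adjusted p = 0.0304 by edgeR). Fabp2, the intestinal form, rose in controls from 66.8 to 109 CPM (0.71, adjusted p = 0.000808 by edgeR), and its log2 difference in HGFAC-KO mice was 0.42 (adjusted p = 0.0618 by edgeR). Fabp4, the adipocyte form, differed by 0.12 and -0.12 on the log2 scale and did not pass in either genotype. The median over these 4 genes was 0.46 in controls and 0.34 in HGFAC-KO mice, against 0.00 over all genes tested in either genotype.

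Among trefoil, linker histone and copine relatives, edgeR called genes in controls, in both directions, and 0 in HGFAC-KO mice. The difference between genotypes was not tested. Tff1, the only other measured trefoil gene, rose in controls from 1.02 to 1.88 CPM (log2 difference 0.87, adjusted p = 0.00301 by edgeR) and differed by 0.31 in HGFAC-KO mice (adjusted p = 0.283 by edgeR). Of 4 linker histone genes other than H1fx, 2 fell in controls and 0 rose. Hist1h1c fell from 169 to 69.4 CPM (log2 difference -1.28, adjusted p = 0.000823 by edgeR) and Hist1h1d from 2.53 to 0.806 CPM (-1.65, adjusted p = 0.0201 by edgeR), while 0 of 5 passed in HGFAC-KO mice, with 0 at an unadjusted p under 0.05 and 0 with DESeq2 or voom. Transcripts of the Hist1h1 genes mostly lack a poly(A) tail, so their counts in mRNA libraries are uncertain. Of 4 copines other than Cpne5, Cpne1 rose in controls by 0.18 on the log2 scale (adjusted p = 0.0436 by edgeR), and 0 of 4 passed in HGFAC-KO mice, where 2 had an unadjusted p under 0.05 and 1 passed with DESeq2.

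Relatives of Rgs16 and Fgd6 were compared in the same way. Of 10 other regulators of G protein signaling, 0 passed in controls (1 at an unadjusted p under 0.05, 0 with DESeq2 or voom) and Rgs2 rose in HGFAC-KO mice, from 2.20 to 3.02 CPM (log2 difference 0.46, adjusted p = 0.0353 by edgeR), where 3 of 10 had an unadjusted p under 0.05 and 3 passed with DESeq2. Rgs1 had larger log2 differences, 0.67 in controls and 0.89 in HGFAC-KO mice, which did not pass (adjusted p = 0.291 and 0.0753 by edgeR). Of 23 subunits of heterotrimeric G proteins, among them the Gi and Gq α subunits that such regulators act on, 2 passed in controls. Gna14, a Gq family subunit, rose from 1.86 to 3.94 CPM (1.08, adjusted p = 0.00222 by edgeR) and Gnai1, a Gi subunit, fell from 3.64 to 1.68 CPM (-1.11, adjusted p = 0.00352 by edgeR). In HGFAC-KO mice 0 of 23 passed, with 4 at an unadjusted p under 0.05 and 0 with DESeq2 or voom. Of 5 other genes of the FGD family, 0 passed in controls (0 also at an unadjusted p under 0.05 and with DESeq2 or voom) and Fgd2 rose in HGFAC-KO mice by 0.47 on the log2 scale (adjusted p = 0.0306 by edgeR), where 3 of 5 had an unadjusted p under 0.05 and 1 passed with DESeq2. Of 21 genes for CDC42 and its effectors, 3 fell in controls (Cdc42se1, Cdc42se2 and Pard6b, by 0.19 to 0.24 on the log2 scale) and 0 passed in HGFAC-KO mice, with 5 at an unadjusted p under 0.05 and 3 with DESeq2.

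Lists for lipid and sugar metabolism held changes in both directions. Of 24 genes for fatty acid uptake, activation and droplet storage, 3 rose and 4 fell in controls, and 1 rose and 1 fell in HGFAC-KO mice, where 8 had an unadjusted p under 0.05 and 5 passed with DESeq2. Mgll rose in both genotypes (log2 difference 0.52 and 0.36) and Pnpla2, the adipose triglyceride lipase, fell in both (-0.36 in each). Of 20 targets of ChREBP, the carbohydrate-sensing transcription factor, 4 rose and 2 fell in controls and 1, Txnip, rose in HGFAC-KO mice (0.39, adjusted p = 0.0347 by edgeR), where 7 had an unadjusted p under 0.05 and 6 passed with DESeq2. The risers in controls were Pklr, the liver pyruvate kinase (0.73), Slc2a2, the glucose transporter GLUT2 (0.74), Khk, the ketohexokinase (0.36), and Gpd1, a glycerol-3-phosphate dehydrogenase (0.28). In HGFAC-KO mice the log2 difference was 0.66 for Pklr and 0.58 for Slc2a2 (adjusted p = 0.0779 and 0.0748 by edgeR). Of 13 PPARγ targets in liver, 0 rose and 2 fell in controls, and 1 rose and 1 fell in HGFAC-KO mice. Pdk4, the pyruvate dehydrogenase kinase, fell in both (-0.93 and -0.98).

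Markers of the cell types that liver tissue holds were compared between the diets in the same way. Fewer cells of a type and less RNA per cell cannot be told apart in bulk tissue. Of 6 measured cholangiocyte markers, 0 passed in either genotype, with 0 at an unadjusted p under 0.05 and 0 with DESeq2 or voom. Of 8 markers of Kupffer cells and macrophages, 0 passed in controls (3 at an unadjusted p under 0.05, 1 with DESeq2 and 1 with voom) and 4 rose in HGFAC-KO mice: Adgre1, Clec4f, Cd68 and Cd5l, by 0.51 to 0.68 on the log2 scale, where 7 of 8 had an unadjusted p under 0.05 and 6 passed with DESeq2. The summed level of the 8 ran from 127 to 194 CPM in HGFAC-KO mice on chow and from 166 to 292 CPM on HF/HS, and from 136 to 290.3 and 166 to 344 CPM in controls. Of 7 sinusoidal endothelial markers, 1, Stab2, rose in HGFAC-KO mice (0.42), where 5 had an unadjusted p under 0.05 and 4 passed with DESeq2. In controls 0 passed, while 4 had an unadjusted p under 0.05, 2 passed with DESeq2 and 0 with voom. Of 6 lymphocyte markers, Cd4 rose in both genotypes (1.6 and 1.57), and the summed level of the 7 listed was at most 5.86 CPM in every mouse. Of 6 hepatocyte markers, Tat, the tyrosine aminotransferase, fell in both genotypes (-0.51 and -0.75) and Apoa1 rose in controls (0.39). Of 7 stellate cell markers, Lrat fell in controls (-0.60) and 0 passed in HGFAC-KO mice, with 1 at an unadjusted p under 0.05 and 1 with DESeq2. Of the markers of lipid-associated macrophages, 0 of 5 passed in controls and 0 of 6 in HGFAC-KO mice, with 3 and 1 at an unadjusted p under 0.05 and 0 with DESeq2 or voom. Of the 5 adipocyte markers, Lep was at 0 counts in all 27 mice, Adipoq in 14, Plin1 in 13 and Retn in 22, while Cfd was detected in all 27. Their summed level reached 2.35 CPM in controls on chow and 2.02 CPM in HF/HS-fed HGFAC-KO mice. The part of these cell types in the levels of the 6 genes was not tested.

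Between genotypes, 0 of 166 genes of these lists passed on chow and 0 of 167 on HF/HS with edgeR. At an unadjusted p under 0.05 there were 16 on chow and 27 on HF/HS, DESeq2 passed 1 and 2, and limma voom 0 on each diet. Over all genes tested, 5.98% on chow and 9.64% on HF/HS had an unadjusted p under 0.05 between genotypes, 0.0811% and 0.406% passed with DESeq2, and 0.00737% and 0.0148% with limma voom.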

How the data were processed

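Liver RNA was measured by RNA-Seq in 27 mice. The authors made stranded mRNA libraries, aligned reads to GRCm38 (mm10) with HISAT2 and counted them with featureCounts 1.6.3, and they deposited whole-number counts per gene in 1 table without normalization. Of its 27179 rows, 3886 name no gene; they held 4.13% to 12.1% of a library's counts and were left out, and 89 symbols on several rows were summed. Total counts per mouse had a median of 47239271, and counting error is largest for H1fx, Cpne5 and, on chow, Rgs16, each down to 2 or 3 counts in a mouse. Every pair of libraries in a group differed by more than counting noise, with a chi-square per gene of 16.9 or more.

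Counts were fitted in R 4.3.3 with edgeR 4.0.16 (TMM, filterByExpr with a minimum count of 10 and total of 15, robust quasi-likelihood), each comparison on its own groups, with a threshold of 0.05 on Benjamini-Hochberg adjusted p. Standard errors were derived from the F statistic. Exact permutation tests and correlations used log2 CPM with a prior count of 2. On counts simulated for the diet comparison in controls, 186 of 200 changed genes were recovered with 5 others called among 13467. For genes given a log2 difference of 1 there, the median estimate was 0.9958. Recovery at the smaller log2 differences reported here was not tested. Alternatives were DESeq2 1.42.0, limma 3.58.1 voom, upper-quartile scaling, no filter, a fit of all mice, the replicate number as a block, and each mouse left out. The 6 genes and the gene lists were chosen with earlier results of these data known. The rule for other named genes was: Hgfac; listed genes past the threshold, first those past it in both genotypes; measured relatives of the 6 genes; fixed cell type markers; and the 3 genes most correlated with each. List genes past the threshold in 1 genotype were named after their values were seen. Results for a few genes that this rule names are not reported here.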

Additional observations from a re-analysis of the deposited data

Results flagged for a closer look

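In 4 of the 24 combinations of a gene and a group, 1 mouse stood apart from the rest of its group by Dixon's criterion. For normally distributed values that criterion flags about 1 in 20 by chance. Here it was applied to CPM that were not log-transformed, which are skewed in some of these groups. The share it flags over all genes was not computed, so 4 of 24 is not read as an excess. Tff3 was 59.5 CPM in HGFAC-KO replicate 1 on chow, with the next mouse at 11.2 CPM. Cpne5 was 2.62 CPM in HGFAC-KO replicate 1 on HF/HS, with the other 6 between 0.684 and 1.12 CPM. Rgs16 was 9.08 CPM in control replicate 5 on HF/HS, with the next at 4.36 CPM. Fabp5 was 6.27 CPM in HGFAC-KO replicate 6 on chow, with the other 5 between 10.6 and 12.97 CPM. These are 4 different mice, and the source of these values was not tested.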

How the results depend on the processing

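All 215 recalculated diet differences of the 6 genes were rises, and 0 of the 6 genes passed the threshold between genotypes in any alternative run. Leaving out each mouse in turn moved the Tff3 diet difference in HGFAC-KO mice, 0.83, between 0.60 and 2.47 (limma voom gave 1.99 and the replicate block 1.92), the Fabp5 genotype difference on HF/HS between -0.029 and 0.27 and that of Rgs16 on HF/HS between -0.23 and 0.63, on the log2 scale. The difference of the Tff3 diet effect between genotypes went from -2.10 to -0.46 without HGFAC-KO replicate 1 on chow, a setting chosen after seeing the data. Listed genes past the threshold between diets numbered 29 in controls and 15 in HGFAC-KO mice, and 36 and 37 with DESeq2. The labels give no meaning to the replicate numbers, and not every same-numbered pair deviated together, so the numbers were not taken as pairs: r exceeded 0.1 in 0 of 7 pairs across diets in controls, 4 of 6 in HGFAC-KO mice (-0.148 to 0.267, median 0.125, against 0.00252 for other numbers), 1 of 6 across genotypes on chow (highest 0.368) and 3 of 7 on HF/HS. In HGFAC-KO mice 3 of 7 HF/HS mice correlated best with their own number, a hint from the data only, and in controls 0 of 7. Replicate 7 of the HF/HS-fed HGFAC-KO mice had no chow mouse of its number and could not match. The replicate block gave 19 listed genes in controls and 14 in HGFAC-KO mice, 0 of the 6 genes between genotypes on either diet, and -1.16 for the Tff3 difference of diet effects. Over all genes, the block took risers in controls from 667 to 337 and fallers from 757 to 437. DESeq2 took risers in HGFAC-KO mice from 431 to 726 and fallers from 371 to 679, and gave 11 genes between genotypes on chow and 55 on HF/HS. With 1 mouse left out, risers numbered between 448 and 848 in controls and between 267 and 461 in HGFAC-KO mice, and fallers between 521 and 932 and between 200 and 497. Depth limits H1fx, Cpne5 and Rgs16 on chow, where single mice had 2 or 3 counts.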
